A study of Homo sapiens with 2 samples.

Results

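The 10 keratin genes KRT6A, KRT6B, KRT6C, KRT16, KRT17, KRT7, KRT8, KRT18, KRT19 and KRT80 were read in HaCaT cells, keratinocytes of human skin that grow without limit after a spontaneous change in culture. They were picked by gene symbol and all 10 are among the 15159 genes of the table. The FLI1 library came from cells given the MigR1 vector carrying FLI1, which encodes a transcription factor of the ETS family that acts in blood vessel and platelet-forming cells. The vector control library came from cells given MigR1 alone. Both received 4 µg of DNA with Lipofectamine in serum-free medium, which was changed after 6 hours. RNA was taken on day 2 after a look for GFP. The species of the FLI1 sequence and the share of cells that took up the vector are not given. Each group had 1 library, so no p-value is given, and nothing separates an effect of FLI1 from a difference between dishes. The 95% intervals below come from read counts, compare these 2 libraries and cover counting error only, as no molecular identifiers are named and reads need not be separate molecules.

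Keratins are the intermediate filament proteins of epithelia. A type II keratin pairs with a type I keratin to form the filament, so their genes are read as partners. In resting epidermis the basal layer makes KRT5 and KRT14, while the type II KRT6 proteins and their type I partners KRT16 and KRT17 are made after wounding, in psoriasis and in culture. KRT7, KRT8, KRT18 and KRT19 belong to simple, single-layered epithelia and are often kept by immortal keratinocyte lines. KRT80 is a type II keratin found in many epithelia, linked to desmosomes and to cells entering differentiation. The study raised FLI1 to look at inflammatory genes linked to psoriasis, a disease in which KRT6, KRT16 and KRT17 are standard markers.

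Of the wound-activated keratins, KRT17, KRT16 and the KRT6 genes were all somewhat higher in the FLI1 library, by 1.36-fold, 1.30-fold and, summed, 1.18-fold. The simple epithelial pair KRT8 and KRT18 was higher too, by 18.2% and 25.1%. KRT19 and KRT80 were lower, at 0.877 and 0.822 times the vector control, and KRT7 did not differ detectably at this depth. With KRT6A, KRT6B and KRT6C summed, 0 of 8 values reached a 2-fold difference in either direction.

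Few genes of the table did so. Of the 11659 genes that reached 20 reads in either library, 1.19% differed 2-fold or more towards the FLI1 library and 0.480% towards the vector control library. Of the same 8 keratin values, 5 had a counting interval above 0, 2 below 0 and 1 that included 0. Over all genes past that minimum, 16.5% had an interval above 0 and 14.7% below it. Most keratins are deeply read, which narrows the interval, so genes that reach 1000 reads in either library are the closer background. There 26.6% had an interval above 0 and 19.0% below it, against 5 and 1 of the 7 keratin values of that depth. The median log2 ratio of the 8 values was 0.24, against -0.0036 for all genes past the minimum of 20 reads. At a lower bar, 25% higher or 20% lower, 3 of 8 were higher (KRT16, KRT17 and KRT18) and 0 lower, against 8.35% and 7.16% of all genes. At 1000 reads or more, 165 of 3719 genes were past the bar upwards and 47 downwards, against 3 and 0 of the 7 keratin values. KRT18 sat on that bar and was under it with library totals, DESeq2 size factors, FPKM or TPM.

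**Figure D1:**
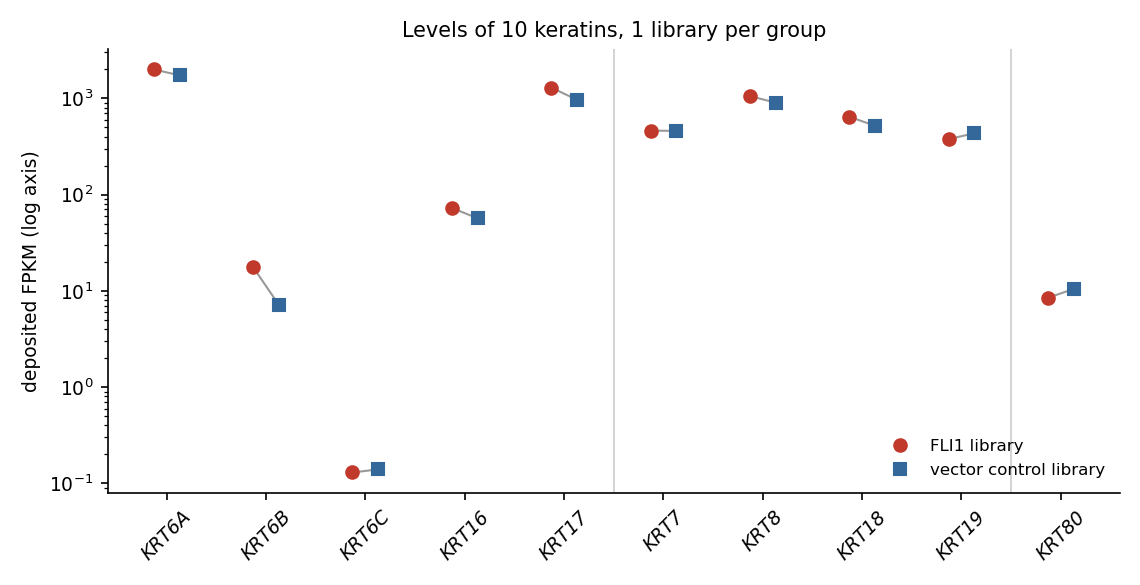
Deposited FPKM (log axis) of each keratin in the FLI1 library (circles, left) and the vector control library (squares, right), with 1 library per group and lines joining the same gene. KRT6A, KRT17 and KRT8 led in both libraries, and KRT6C stood at 0.13 and 0.14 FPKM.

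Before the keratins, the label was read in FLI1 itself, which had 2452 reads in the FLI1 library and 64 in the vector control library (log2 ratio 5.26, interval 4.91 to 5.65). The libraries held 14677273 reads (FLI1) and 14497105 reads (vector control). All 7 keratinocyte markers were present, with a summed 6856 FPKM in the FLI1 library and 7397 FPKM in the vector control library. Summed markers of fibroblasts, endothelial cells and leukocytes lay between 0.75 and 1.20 FPKM in the FLI1 library and between 0.43 and 1.23 FPKM in the vector control library. Markers of Merkel cells, the KRT20-bearing touch cells of the epidermis that also carry KRT8 and KRT18, summed to 26 reads in the FLI1 library and 38 in the vector control library. Those of melanocytes summed to 4.96 FPKM in the FLI1 library and 1.16 FPKM in the vector control library. Of the melanocyte list 5 of 5 markers are in the table, DCT at 0 reads in the FLI1 library and TYRP1 at 0 in the vector control library. The part of this difference in the keratin values was not tested. Of the other 4 lists 2 or 3 markers each are in the table, with PIEZO2 at 0 in the FLI1 library and CDH5 and CD14 at 0 in the vector control library. KRT20 itself had 3 reads in the FLI1 library and 4 in the vector control library. In a bulk sample, more cells making a keratin and more of its RNA per cell cannot be told apart.

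The sequence printed here is the promoter of one KRT8 transcript, whose reads are given further below. Of the 10 genes, 1 matched the RefSeq promoter table (build GRCh38.p14), KRT8, at chr12:52926420-52926719 on the minus strand. The window runs from 250 bases before to 50 bases after the start site at 52926469, which is the start that GENCODE release 29 (GRCh38) gives the minor KRT8 transcript NM_001256282. Capitals mark the letters CCGGAAGT, the high-affinity word bound by ETS factors, which lie here on the opposite strand at -59 to -52 from the start site.
KRT8 promoter: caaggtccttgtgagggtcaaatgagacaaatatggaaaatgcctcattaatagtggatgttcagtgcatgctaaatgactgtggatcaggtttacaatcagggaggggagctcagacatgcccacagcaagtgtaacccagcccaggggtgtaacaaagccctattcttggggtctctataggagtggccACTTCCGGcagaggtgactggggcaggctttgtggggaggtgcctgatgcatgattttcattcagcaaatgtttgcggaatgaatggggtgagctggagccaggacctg
The 8-letter word was sought on both strands and occurs in 4.14% of the 35116 promoters of the table. The shorter ETS core GGAA matched 3 times in this window and is present in 95.5% of promoters, so its presence separates little. One strand of each CCGGAAGT match holds a GGAA, so the counts overlap. The AP-1 word TGANTCA had no match in these 300 bases, against 7.71% of promoters with one. These are letter matches only and show no binding.

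The KRT6 genes encode the type II keratins of activated epidermis. KRT6A, KRT6B and KRT6C lie side by side on the minus strand of chromosome 12 (GRCh38), at chr12:52487174-52493257, chr12:52446651-52452126 and chr12:52468516-52473785. Their transcripts are near-copies, identical at 91.7% of aligned bases between KRT6A and KRT6B, 95.8% between KRT6A and KRT6C, and 93.2% between KRT6B and KRT6C. Of all 75-base words in the KRT6A transcript, 26.2% recur in another gene, and 34.9% of KRT6B words and 42.9% of KRT6C words do so. Their estimated counts are fractional and reads of the shared stretches could be assigned to any of them, so the sum is the firmer value. The sum leaves in place the words shared with KRT5, 1.34% of KRT6A, 2.4% of KRT6B and 2.71% of KRT6C words. KRT5 counts were fractional as well, and the part of this sharing was not tested. Summed, the KRT6 genes had 59759 reads in the FLI1 library and 51116 in the vector control library, a log2 ratio of 0.23 (interval 0.22 to 0.25). That is a small difference measured with many reads, and 12.3% of all genes past the minimum had a larger ratio.

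Taken singly, KRT6A carried almost the whole of the sum. It was assigned 59234.53 estimated reads in the FLI1 library and 50902.35 in the vector control library (log2 ratio 0.23, interval 0.21 to 0.24). It was the leading keratin of the set per length, at 1991 FPKM in the FLI1 library and 1727 FPKM in the vector control library, ranks 29 and 37 of all genes. KRT6B stood apart from the other keratins. It was assigned 521.14 estimated reads in the FLI1 library and 209.19 in the vector control library, a log2 ratio of 1.32 (interval 1.09 to 1.56) or 2.50-fold, and 0.64% of genes past the minimum had a larger ratio. It was the one gene of the 9 past the minimum that reached 2-fold. KRT6B made up 0.872% of the reads of the 3 genes in the FLI1 library and 0.409% in the vector control library, so its extra 312 reads compare with 8332 extra reads of KRT6A. How the counting divided reads among the near-copies is not given, and its part in the KRT6B ratio was not tested. KRT6C was assigned 3.76 and 4.15 estimated reads in the FLI1 and vector control libraries, below the minimum of 20, and no difference was detectable at this depth.

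KRT16 and KRT17 are the type I partners of KRT6 in wounded and psoriatic epidermis, and KRT17 is also known to act on growth and inflammatory signalling. They are neighbours on the minus strand of chromosome 17, at chr17:41609778-41615899 and chr17:41619441-41624842. KRT17 had 23390 reads in the FLI1 library and 17331 in the vector control library. Its log2 ratio of 0.44 (interval 0.41 to 0.47) was the largest of the set apart from KRT6B, and 5.45% of all genes past the minimum exceeded it. Per length it was the second keratin of the set, at 1290 FPKM in the FLI1 library and 963 FPKM in the vector control library. KRT16 was far less abundant, at 72.5 FPKM in the FLI1 library and 56.6 FPKM in the vector control library. From 1463.82 estimated reads in the FLI1 library and 1135.45 in the vector control library its log2 ratio was 0.37 (interval 0.26 to 0.49). This interval overlaps that of KRT17, so the 2 ratios were not separable at this depth. KRT17 exceeded KRT16 by 17.8 times in FPKM in the FLI1 library and by 17.0 times in the vector control library. Of the KRT16 words 9.68% recur in another gene, with 5.92% in the pseudogene KRT16P3 and 5.35% in KRT14. Counts of KRT14, the basal keratin, were fractional as well. Of the KRT17 words 4.57% recur in another gene, all in pseudogenes. KRT14 had a log2 ratio of -0.05.

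The partner balance of the wound-activated keratins differed between the libraries. KRT6A, KRT6B and KRT6C together had 1.47 times the FPKM of KRT16 and KRT17 in the FLI1 library and 1.70 times in the vector control library. Both sides had more message in the FLI1 library, the type I side by a larger factor. KRT5 and KRT14, the basal partners, had an FPKM ratio of 1.01 in the FLI1 library and 1.17 in the vector control library, also with less type II message per type I message. The simple keratins, when pooled, went the other way. KRT7 and KRT8 together had 1.49 times the FPKM of KRT18 and KRT19 in the FLI1 library and 1.43 times in the vector control library. The pair KRT8 and KRT18 alone did not, with an FPKM ratio of 1.64 in the FLI1 library and 1.74 in the vector control library. Over all 37 keratin genes listed, the ratio of type II to type I FPKM was 1.15 in the FLI1 library and 1.22 in the vector control library.

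**Figure D2:**
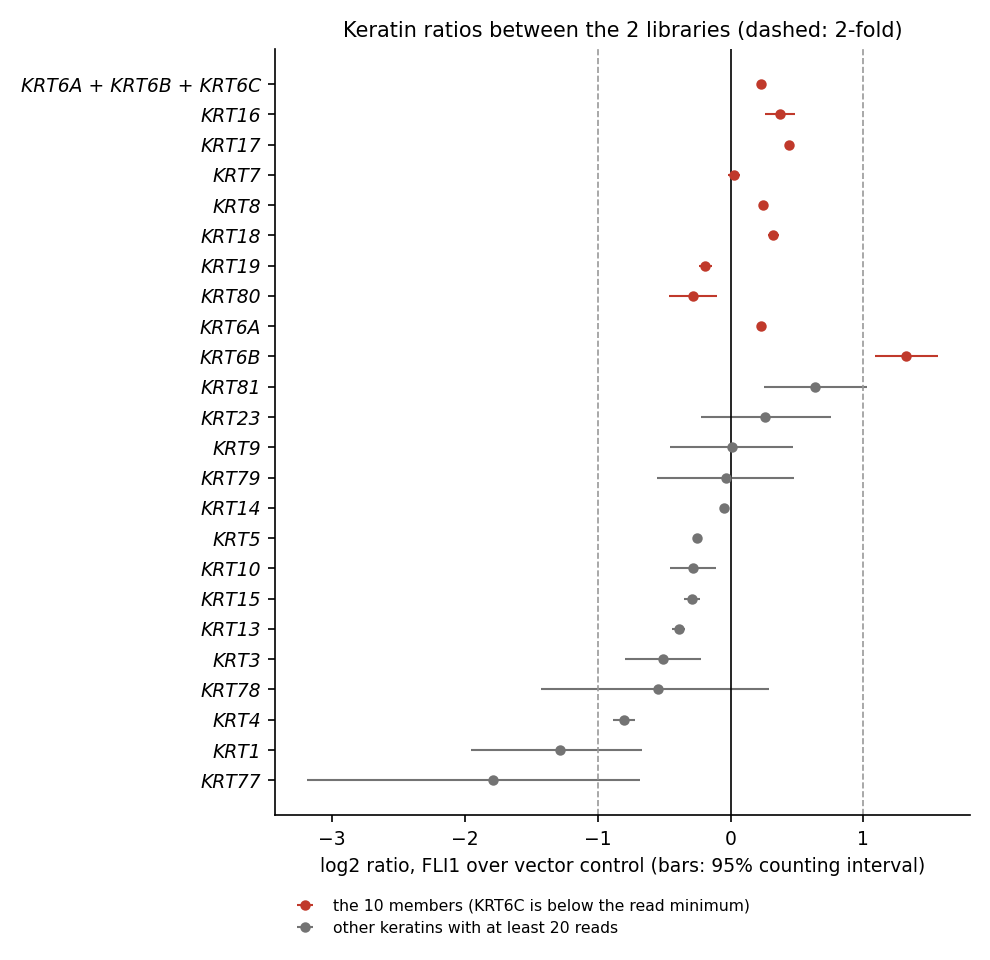
Log2 ratio (FLI1 over vector control) of each keratin with at least 20 reads in 1 library. The KRT6 sum and the members past that minimum, KRT6A and KRT6B included, are in red and other keratins in grey. Bars are 95% counting intervals and dashed lines mark 2-fold, which KRT6B alone of the red points exceeds, at 1.32. KRT17, KRT16, KRT18, KRT8, KRT6A and the KRT6 sum lie right of 0, and the interval of KRT7 includes it. KRT19 and KRT80 lie left of 0 with most of the other keratins.

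KRT8 and KRT18 are the founding keratin pair of simple epithelia. In GRCh38 their genes meet head to head on chromosome 12, KRT8 on the minus strand at chr12:52897187-52949954 and KRT18 on the plus strand at chr12:52948871-52952901. KRT8 had 23157 reads in the FLI1 library and 19700 in the vector control library (log2 ratio 0.24, interval 0.21 to 0.27). KRT18 had 10644 reads in the FLI1 library and 8555 in the vector control library (log2 ratio 0.32, interval 0.28 to 0.36). Both partners were thus higher in the FLI1 library, and their intervals do not overlap each other. Per length, KRT8 exceeded KRT18 by 1.64 times in the FLI1 library and by 1.74 times in the vector control library. The annotated exons of the 2 genes share 525 bases on opposite strands, through long KRT8 transcripts that reach the KRT18 start. Neither KRT8 transcript listed with reads here does so, since the nearer one starts 22402 bases short of KRT18. Of the KRT18 words, 25.5% recur in another gene, mostly in KRT8 on the opposite strand and in KRT18 pseudogenes, and 17.8% of KRT8 words recur in KRT8 pseudogenes. The counts of both genes were whole, and the strand setting is not given.

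KRT19, the smallest keratin, and KRT7, the type II keratin of ducts and glands, did not follow that pair. KRT19 lies at chr17:41523617-41528308 on the minus strand. It had 6109 reads in the FLI1 library and 7003 in the vector control library, a log2 ratio of -0.19 (interval -0.24 to -0.14). None of its 75-base words recur in another annotated transcript. Its FPKM was 0.586 times that of KRT18 in the FLI1 library and 0.836 times in the vector control library. KRT7 lies at chr12:52232520-52252186 on the plus strand. It had 9100 reads in the FLI1 library and 8988 in the vector control library, a log2 ratio of 0.03 (interval -0.02 to 0.07). The interval bounds any difference to between 0.989 and 1.05 times the vector control, counting error only. Of the KRT7 words 9.05% recur in the antisense gene KRT7-AS, and without a strand setting the reads of both cannot be told apart. The sign of this ratio turned from above to below 0 when deposited TPM was used.

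KRT80 lies at chr12:52168996-52192000 on the minus strand. It was at 8.46 FPKM in the FLI1 library, where only KRT6C of the set was lower, and at 10.5 FPKM in the vector control library, where KRT6B and KRT6C were lower. It had 448 reads in the FLI1 library and 548 in the vector control library (log2 ratio -0.28, interval -0.47 to -0.10). Its interval is wider than those of the simple keratins because of the lower count, and it overlaps that of KRT19.

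**Figure D3:**
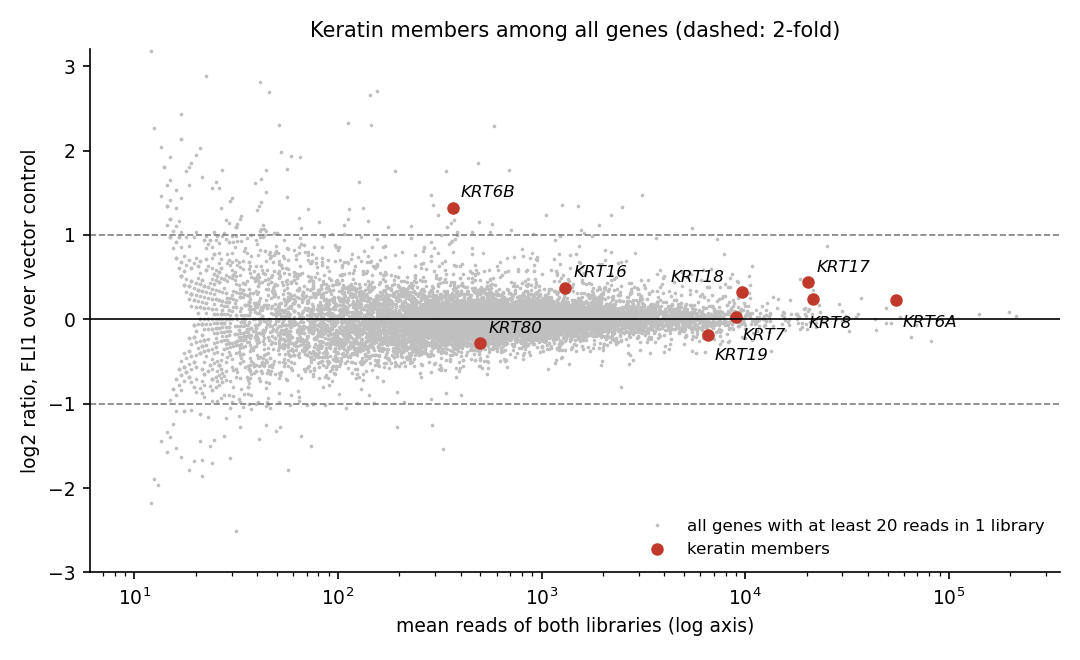
Log2 ratio (FLI1 over vector control) against mean reads (log axis) for the 11659 genes with at least 20 reads in 1 library (grey), with the 9 keratins past that minimum in red; 16 genes lie outside the plotted range of ratios. KRT6B alone among the keratins shown lies beyond the dashed 2-fold lines, and KRT17, KRT8 and KRT6A sit at the deeply read end with ratios from 0.23 to 0.44.

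The transcript table divides 4 of the genes among several transcripts. For KRT8 the reads assigned to the 2 listed transcripts differed in opposite directions. NM_002273, which held 98.7% of KRT8 reads in the FLI1 library and 97.6% in the vector control library, had 22855.07 and 19235.85 estimated reads in these libraries (log2 ratio 0.26, interval 0.23 to 0.28). NM_001256282, which starts at the promoter printed above, had 301.93 estimated reads in the FLI1 library and 464.15 in the vector control library (log2 ratio -0.61, interval -0.83 to -0.40). The 8-letter ETS word lies in the promoter of this minor transcript, which had fewer reads in the FLI1 library. A link between the word and these reads was not tested. The start of NM_002273 lies 19851 bases away from that of NM_001256282, and the promoter there was not analysed here. In the annotation 58 exonic bases are particular to NM_001256282 and 253 to NM_002273, so the reads that tell them apart come from a short stretch. The intervals of both transcripts do not include the error of dividing reads between them.

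KRT80 showed a similar division. NM_182507 had 263.92 estimated reads in the FLI1 library and 394.75 in the vector control library (log2 ratio -0.57, interval -0.80 to -0.35). NM_001081492 had 178.37 in the FLI1 library and 138.42 in the vector control library (log2 ratio 0.37, interval 0.05 to 0.71). Its share of KRT80 reads was 39.8% in the FLI1 library and 25.3% in the vector control library. NM_182507 and NM_001081492 share their first and last base, and NM_001081492 differs by 35 additional exonic bases, with 0 particular to NM_182507. A further transcript, XM_005268676, was below the minimum, at 5.71 estimated reads in the FLI1 library and 14.83 in the vector control library. The lower value of the gene therefore lay mostly in NM_182507, as far as the authors' division of reads holds, and the interval does not include the error of that division. For KRT18 both listed transcripts had ratios above 0, NM_000224 at 0.32 with 99.3% of the reads in each library and NM_199187 at 0.27 with an interval that included 0. All 3 KRT7 transcripts had intervals that included 0, and KRT6A, KRT6B, KRT6C, KRT16, KRT17 and KRT19 had 1 transcript each.

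**Figure D4:**
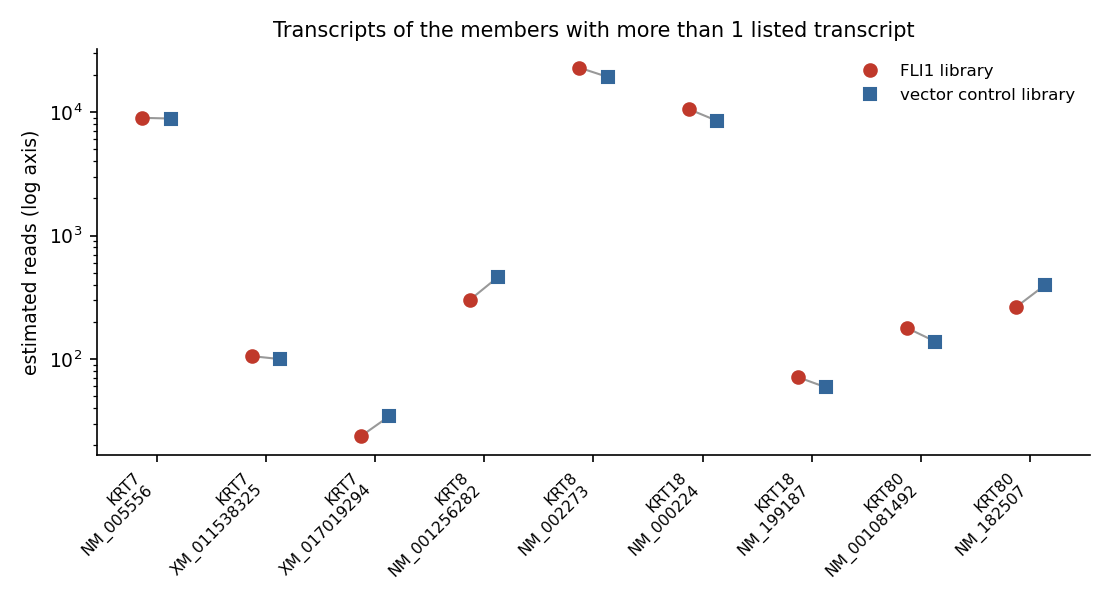
Estimated reads (log axis) of each transcript with at least 20 reads in 1 library, for the 4 keratins with more than 1 listed transcript, in the FLI1 library (circles, left) and the vector control library (squares, right). The minor KRT8 transcript NM_001256282 and the KRT80 transcript NM_182507 were lower in the FLI1 library, while the other transcript of each gene was higher.

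All keratins together made up 2.06% of the summed FPKM of the FLI1 library and 2.08% of that of the vector control library, so the libraries differed more in keratin make-up than in keratin total. The 10 genes held 50.9% of keratin FPKM in the FLI1 library and 43.6% in the vector control library. The wound-activated group held 29.04% in the FLI1 library and 23.66% in the vector control library. The simple epithelial group held 21.8% in the FLI1 library and 19.8% in the vector control library. Basal KRT5, KRT14 and KRT15 made up the counterpart, with 46.0% in the FLI1 library and 52.0% in the vector control library. These are shares of 1 whole, so a larger share of one group entails a smaller share of another.

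**Figure D5:**
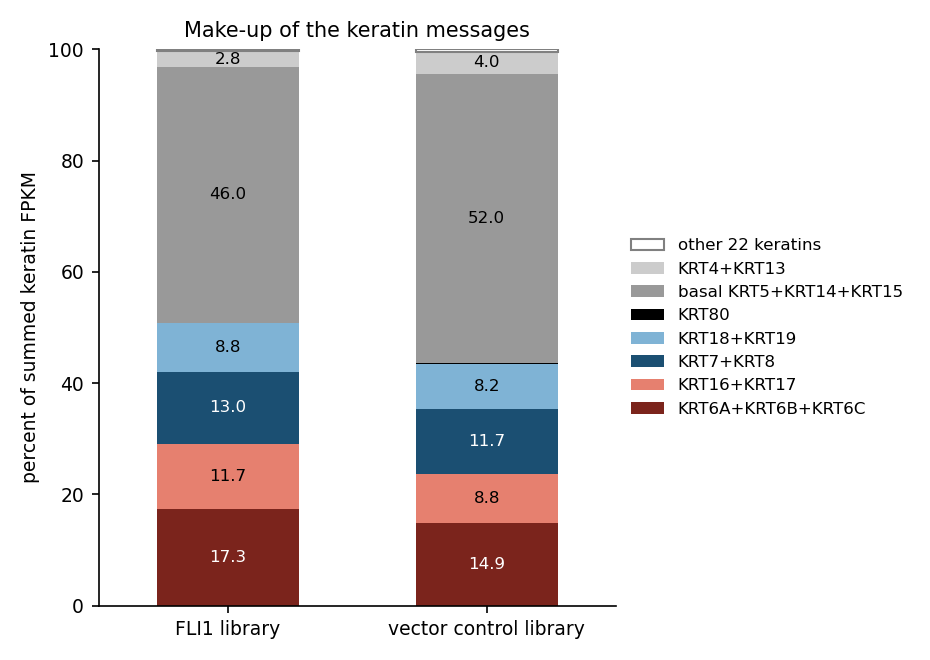
Percent of summed keratin FPKM held by keratin groups in the FLI1 library (left bar) and the vector control library (right bar), stacked to 100 over 37 keratin genes. The KRT6 genes with KRT16 and KRT17 made up 29.04% in the FLI1 library and 23.66% in the vector control library, and KRT5, KRT14 and KRT15 made up 46.0% and 52.0%.

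The other keratins were mostly lower in the FLI1 library. Of 27 listed, 14 passed the minimum of 20 reads, with intervals below 0 for 9 and above 0 for 1, and the median log2 ratio was -0.29, against -0.0036 for all genes. Of all genes past 20 reads 14.7% had an interval below 0 and 16.5% above it, and 19.0% and 26.6% of those past 1000 reads. The 2 that reached 2-fold, both lower (0.480% of all genes were), were KRT77 (8 reads in the FLI1 library and 29 in the vector control library, log2 ratio -1.79) and KRT1, a spinous-layer keratin (30 and 74 reads, -1.28). KRT4 and KRT13, the keratin pair of moist stratified epithelia such as the mouth, were picked after their values had been seen, as were KRT5, KRT14, KRT15 and KRT81. KRT5, the most abundant keratin in both libraries, had 2598 FPKM in the FLI1 library and 3147 FPKM in the vector control library (log2 ratio of counts -0.26, interval -0.27 to -0.24). KRT4 had 1784 reads in the FLI1 library and 3126 in the vector control library (log2 ratio -0.80, interval -0.89 to -0.72). KRT13 had 5477 reads in the FLI1 library and 7225 in the vector control library (log2 ratio -0.39, interval -0.44 to -0.34). Of all genes past the minimum, 0.94% had a ratio lower than KRT4. The 1 keratin outside the set with an interval above 0 was KRT81, a hair keratin. It had 146.97 estimated reads in the FLI1 library and 95 in the vector control library (log2 ratio 0.63). KRT86, also picked after its values had been seen, had a fractional count too, with 9.03 estimated reads in the FLI1 library. In the vector control library KRT86 had 14, so it was below the minimum. Whether reads were divided between KRT81 and KRT86 was not tested.

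Genes of proteins that anchor or modify keratin filaments showed mostly small ratios. All 22 listed passed the minimum, 0 reached 2-fold and the median log2 ratio was 0.04. The ratios furthest from 0, named after their values were seen, were MACF1 at 0.58 (interval 0.53 to 0.635), KRTCAP3 at -0.46 and EPPK1 at -0.35. Intervals lay above 0 for 11 and below 0 for 4, beside 26.6% and 19.0% of all genes at 1000 reads or more, and 16.5% and 14.7% at 20 or more. DSP, desmoplakin, which ties keratin to desmosomes, had 30971 reads in the FLI1 library and 29000 in the vector control library (log2 ratio 0.10). SFN, the 14-3-3 sigma protein that binds KRT17 and KRT18 in cells, had 20247 reads in the FLI1 library and 18705 in the vector control library (0.12). Among other intermediate filament genes, 6 passed the minimum, with 2 intervals above 0 and 3 below it (16.5% and 14.7% of all genes) and a median of -0.14. The lens filament gene BFSP1 was the one at least 2-fold different, with 34 reads in the FLI1 library and 8 in the vector control library (2.03, interval 0.96 to 3.42).

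The list of regulators tied to KRT6, KRT16 and KRT17 holds AP-1, NRF2, STAT and NF-kB factors among others, and 18 of its genes passed the minimum, with intervals above 0 for 14 and below 0 for 0. Over all genes 16.5% lay above 0 and 14.7% below, and at 1000 reads or more 26.6% and 19.0%. The median log2 ratio was 0.26, against -0.0036 for all genes. Of the 18, 3 reached 2-fold, all higher, where 1.19% of all genes were 2-fold higher and 0.480% lower. Intervals included 0 for 4, named after their values were seen: NFE2L2, the NRF2 gene, at 0.04, NFKB1 at 0.07, SP1 at 0.04 and FOSL2 at 0.03. RELA, another NF-kB gene, was at 0.32 with an interval above 0. EGR1, an immediate early factor, had 785 reads in the FLI1 library and 360 in the vector control library (1.13, interval 0.95 to 1.32). FOS, an AP-1 subunit, had 60 reads in the FLI1 library and 29 in the vector control library (1.04, interval 0.39 to 1.75). KLF4, a factor of suprabasal keratinocytes, had 608 reads in the FLI1 library and 298 in the vector control library (1.04, interval 0.83 to 1.24).

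Other genes of activated epidermis varied widely. Of 21 past the minimum, 5 were at least 2-fold higher and 0 lower, where 1.19% and 0.480% of all genes were. Intervals lay above 0 for 17 and below 0 for 0, where 16.5% and 14.7% of all genes did so. The median log2 ratio was 0.77, against 0.24 for the 8 keratin values and -0.0036 for all genes. The 4 with intervals that included 0, named after their values were seen, were the lowest of the list and all lay under the keratin median. They were S100A8 at -0.56, SPRR1A at -0.08, S100A9 at -0.02 and LCN2 at 0.16, genes of antimicrobial proteins apart from SPRR1A, a cornified envelope precursor. S100A8 had 14 reads in the FLI1 library and 21 in the vector control library. HBEGF, a growth factor ligand released in wounds, had 1071 reads in the FLI1 library and 315 in the vector control library (1.77, interval 1.59 to 1.96). SPRR2A, of the same family as SPRR1A, had 64 reads in the FLI1 library and 20 in the vector control library (1.66, interval 0.94 to 2.49). PI3, the gene of elafin, an inhibitor of neutrophil elastase, had 1798 reads in the FLI1 library and 707 in the vector control library (1.35), and IL1A, an epidermal alarm cytokine, had 493 in the FLI1 library and 224 in the vector control library (1.14). Genes of simple epithelium other than keratins had a median of 0.03 over the 16 past the minimum. Of these, 0 reached 2-fold, and intervals lay above 0 for 6 and below 0 for 2. Beside them stand the same 16.5% and 14.7% of all genes, and 26.6% and 19.0% at 1000 reads or more. The ratios furthest from 0, named after their values were seen, were MUC1 at 0.91, AGR2 at -0.64 and CLDN4 at 0.60. CDH1, the adhesion protein E-cadherin, had 8781 reads in the FLI1 library and 8139 in the vector control library (0.12). With 1 library per group, no difference between these lists was tested.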

How the data were processed

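Total RNA of 2 HaCaT libraries was sequenced on a BGISEQ instrument per the labels' protocols, with GRCh38.p13 named as genome build in the submitters' processing notes. No aligner, counter, annotation or strand setting is named (not given in the sources used here). Per the file headers, both deposited tables (genes, transcripts) give counts, FPKM and TPM by library. Deposited counts are estimated counts, whole to within 0.005 reads for 84.5% (FLI1) and 84.1% (vector control) of genes, and were rounded. Deposited FPKM, which the authors scaled to gene length and reads, gave levels and shares. Deposited TPM, which the authors scaled to a fixed sum in each library, was an alternative.

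Libraries were scaled by TMM (edgeR 4.0.16, R 4.3.3; factors 0.991 for FLI1 and 1.01 for vector control). The log2 ratio is that of the count plus 0.5 over effective library size, FLI1 over vector control, with an exact conditional (Clopper-Pearson) 95% counting interval. Its half-width was 0.97 at 20 reads in each library, 0.13 at 1000 and 0.02 at 50000. No test was run, with 1 library per group. The interval calculation was tested on simulated data. KRT6A, KRT6B and KRT6C were summed because they share reads. Alternatives were library totals, DESeq2 1.42.0 size factors, FPKM, TPM, other prior counts, rounding and filters. The background of genes with at least 1000 reads and the scaling of single transcripts were added after the data had been seen.

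Members and lists were chosen with earlier results of these data known. Genes named besides the members and FLI1 are, per list, up to 4 past 20 reads and 2-fold, largest first, or else the 2 most abundant, with exceptions stated; 1 gene the rule names is not reported here. Genes alike in pattern were not sought, as 2 libraries give none. Positions, shared 75-base words (both strands, all GENCODE release 29 transcripts) and isoform differences came from GENCODE on GRCh38.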

Additional observations from a re-analysis of the deposited data

How the results depend on the processing

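The summed KRT6 log2 ratio was 0.23, and moved past its narrow counting interval, with the direction unchanged, to 0.2076 with library totals alone, 0.212 and 0.2119 from FPKM with 0.5 or 1 added and 0.2043 from TPM with 0.5 added. Over 9 settings the ratio ranged from 0.41 to 0.44 for KRT17, 0.35 to 0.37 for KRT16, 0.30 to 0.32 for KRT18, 0.21 to 0.24 for KRT8, 1.19 to 1.32 for KRT6B, -0.21 to -0.19 for KRT19 and -0.31 to -0.28 for KRT80. A size rule of 25% higher in place of 2-fold raised the count of higher keratins to 4 from 1 over the 9 past the read minimum. With the KRT6 genes summed it rose to 3 from 0. The share of all genes past 20 reads rose to 8.35% from 1.19%. KRT18, in both keratin counts, was under the 25% rule with library totals, DESeq2 size factors, FPKM or TPM. No gene list median changed sign under the scalings and filters tried. Leaving out a replicate was not possible, since it would remove a whole group. Depth limits KRT6C, KRT6B, KRT80 and the minor transcripts most. No paired analysis was possible because each group had 1 library.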
